A study of Mus musculus with 6 samples.

Results

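Of the 15450 named genes measured in sorted mouse retinal cells, 72 carry a symbol that begins as those of the collagens, the laminin chains, the integrin subunits or the ADAMTS proteases do, and they are described here in 2 groups of libraries. Membership followed from the symbols, a choice made with earlier results of these data known. They comprise 26 collagens, 10 laminins, 16 integrins and 16 ADAMTS genes, 4 of the last being ADAMTS-like, and 4 more genes that match by name and belong to other families (Col4a3bp, Itgb1bp1, Itgb1bp2 and Itgb3bp). They rest on 90 transcript rows, and 61 of the 72 rest on 1 row. For 8 of them the most abundant row is not annotated as protein-coding: Adamts8, Adamts10, Adamtsl1, Adamtsl4, Col2a1, Col9a3, Col12a1 and Itga6. The deposited table lists genes with signal only, so family members outside it were not analysed here.

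The mice were 3 to 4 weeks of age at the outset and were of both sexes; a strain is not stated. Their eyes were injected with an adeno-associated virus (AAV). Its cargo was PLAP in the controls (AAV-Control) and, in the treated group, Sox11 (AAV-Sox11), a transcription factor of developing neurons. Every optic nerve was crushed 3 days before collection, 2 weeks after the virus, so that both groups are of injured retinas and no uninjured group enters. Live cells that stained for Thy1, a surface protein of retinal ganglion cells, were sorted, and each library holds cells of 3 retinas of 3 animals. There were 3 libraries a group, lettered A, B and C, and a letter marks preparations made on 1 day. The comparison asks which transcripts differ when the virus supplies Sox11.

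Collagens and laminins are chains of the extracellular matrix. Fibrillar collagens form fibres, whereas type IV collagens and laminins build the basement membranes that line blood vessels and the inner surface of the retina, where the axons of ganglion cells run. Integrins are receptors made of an alpha and a beta subunit, which bind matrix outside the cell and couple to the cytoskeleton inside. ADAMTS enzymes are secreted zinc proteases: some cleave the proteoglycans of the matrix, such as aggrecan and brevican, and others trim procollagens.

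Each ADAMTS protease holds its zinc ion with 3 histidines of the active site, and the stretch that encodes them shows how alike the members discussed below are. The coding sequences are those of GENCODE M21 on GRCm38 (mm10), read 5′ to 3′ on the coding strand, with the codons of the 3 histidines in capitals. Each stretch of 33 bases is interrupted by an intron in the genome, so the coordinates span more than its length.
Adamts2 (chr11:50775403-50776134, plus strand): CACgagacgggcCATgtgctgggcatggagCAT
Adamts3 (chr5:89707433-89707818, minus strand): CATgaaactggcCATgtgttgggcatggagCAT
Adamts15 (chr9:30911255-30911690, minus strand): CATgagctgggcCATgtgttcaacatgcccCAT
Adamts1 (chr16:85799191-85799545, minus strand): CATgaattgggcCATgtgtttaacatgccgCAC
Adamts20 (chr15:94353678-94355296, minus strand): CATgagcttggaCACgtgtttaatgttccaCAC
Adamts5 (chr16:85878015-85887826, minus strand): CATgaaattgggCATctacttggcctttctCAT
Adamts6 (chr13:104352847-104366809, plus strand): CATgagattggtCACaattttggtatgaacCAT
The stretch was found in 10 of the 11 ADAMTS genes that have a row with an annotated coding sequence. The exception was Adamts8, whose only row in the table is annotated as a target of nonsense-mediated decay and encodes 142 residues. Neither of the 2 ADAMTS-like genes with such a row (Adamtsl2 and Adamtsl3) held it; ADAMTS-like proteins are known to lack the protease domain.

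Collagens are recognised by a repeated triplet of residues that begins with glycine, and the length of the unbroken run of such triplets varies among them. A stretch of 5 triplets from the middle of the longest run is given for 4 collagens on which the results below turn, with the glycine codons in capitals.
Col11a1 (fibrillar, chr3:114153180-114153676, plus strand): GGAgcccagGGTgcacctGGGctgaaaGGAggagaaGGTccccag
Col23a1 (transmembrane, chr11:51557498-51557542, plus strand): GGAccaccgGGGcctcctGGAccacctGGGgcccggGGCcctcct
Col6a2 (type VI, chr10:76609329-76609546, minus strand): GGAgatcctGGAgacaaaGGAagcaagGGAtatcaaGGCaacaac
Col4a1 (type IV, chr8:11245773-11245910, minus strand): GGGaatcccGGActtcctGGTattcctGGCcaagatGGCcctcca
The longest run had 338 triplets in Col11a1, 87 in Col6a2, 43 in Col23a1 and 40 in Col4a1. The runs of the 9 fibrillar collagens with a coding row, of 216 to 344 triplets, were the longest; those of the other 14 collagens with one had 17 to 113.

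Scaled values, the authors' normalized values summed over the rows of a gene, are used throughout. The whole-number columns behind them summed to between 10747985 and 11546892 per library. Sox11 itself had scaled values of 131, 111 and 100 in controls A, B and C and 179, 234 and 284 in the AAV-Sox11 libraries, a log2 fold change of 1.0 ± 0.20 (SE) with a limma adjusted p of 0.0504. Transcripts of other retinal cells were abundant in every library: the 6 rod genes listed summed to between 22899 and 58353. All 9 ganglion cell genes listed were measured and summed to between 6650 and 10429. Control A stood apart. Relative to the mean of the other 5 libraries it held 3.22 times the summed value of 5 mural cell genes (of 8 listed). The ratio was 2.31 for 3 endothelial genes (of 8) and 2.68 for 2 astrocyte genes (of 4). Slc1a2 supplied 11440 of the astrocyte sum of 11858 in control A. The ratio was 2.07 for 6 Muller glia genes (of 8) and 3.67 for 5 cone genes, but 1.14 for the ganglion cell genes. Within that last list single genes differed, and Nefl supplied 4741 of the sum of 10108 in control A. Nefl, Nefm, Isl1 and Rbpms were highest in control A. Sncg and Pou4f2 were lowest there, Pou4f2 at 14.6 beside 16.4 to 67.5 elsewhere. In control C 6 microglia and leukocyte genes (of 8) summed to 1.97 times the mean of the others. Tmem119 supplied 1333 of that sum of 2298. Cd68 was highest in AAV-Sox11 A, and the other genes measured of that list were highest in control C. In such sorted pools fewer cells of a type and less RNA per cell cannot be told apart.

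With AAV-Sox11, 1 of the 72 genes rose, the fibrillar collagen Col11a1, and 5 fell: the laminin chain Lama1, the collagen receptor subunit Itga2, and the proteases Adamts2, Adamts15 and Adamts8. These are 1.39% of the 72 higher, where 0.796% of all genes tested were higher, and 6.94% lower, where 1.52% of all genes were. The other 66 did not pass an adjusted p of 0.05 (limma-trend, Benjamini-Hochberg over all 15450 genes). At an unadjusted p under 0.05 stood 29 of the 72 (40.3%), beside 24.3% of all genes. The values of the groups were separate in 12 genes higher with AAV-Sox11 (16.7%, beside 16.2% of all genes) and in 16 genes lower (22.2%, beside 14.4% of all genes). The median log2 fold change was 0.21 over the collagens, 0.04 over the laminins, 0.09 over the integrins and -0.56 over the ADAMTS genes, beside 0.03 over all genes. The ADAMTS median was negative under all 21 alternative fits, but it was -0.12 without control A and -0.08 without both A libraries. The collagen median was -0.11 without control C and the integrin median -0.10 without control B, and the laminin median was -0.02 when values were scaled by library size alone.

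**Figure D1:**
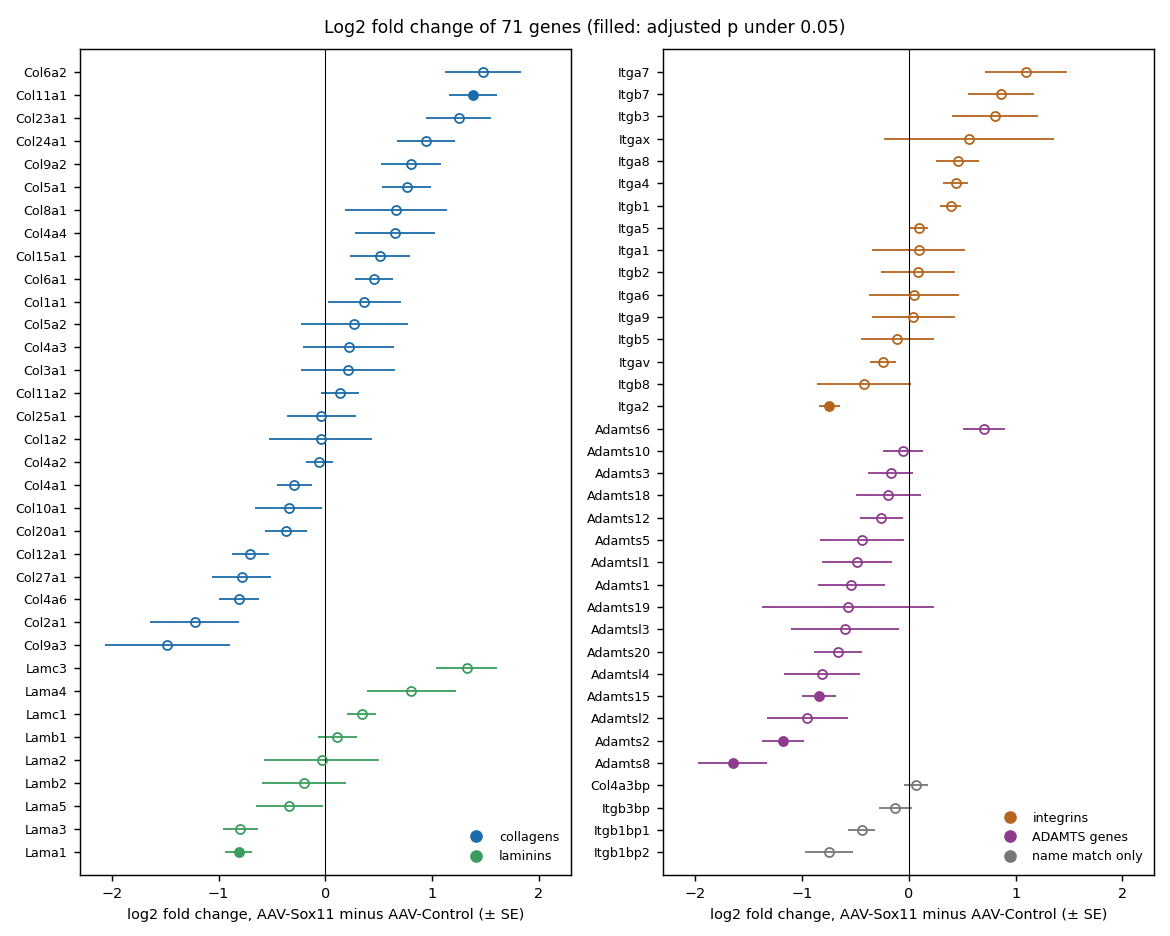
Log2 fold change of 71 of the 72 genes, AAV-Sox11 minus AAV-Control, with its standard error (horizontal axis, log2 of value + 1), ordered within family. Filled circles mark the 6 genes with an adjusted p under 0.05; 15 of the 16 ADAMTS genes lie left of zero, whereas the other 3 families lie on both sides.

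**Figure D2:**
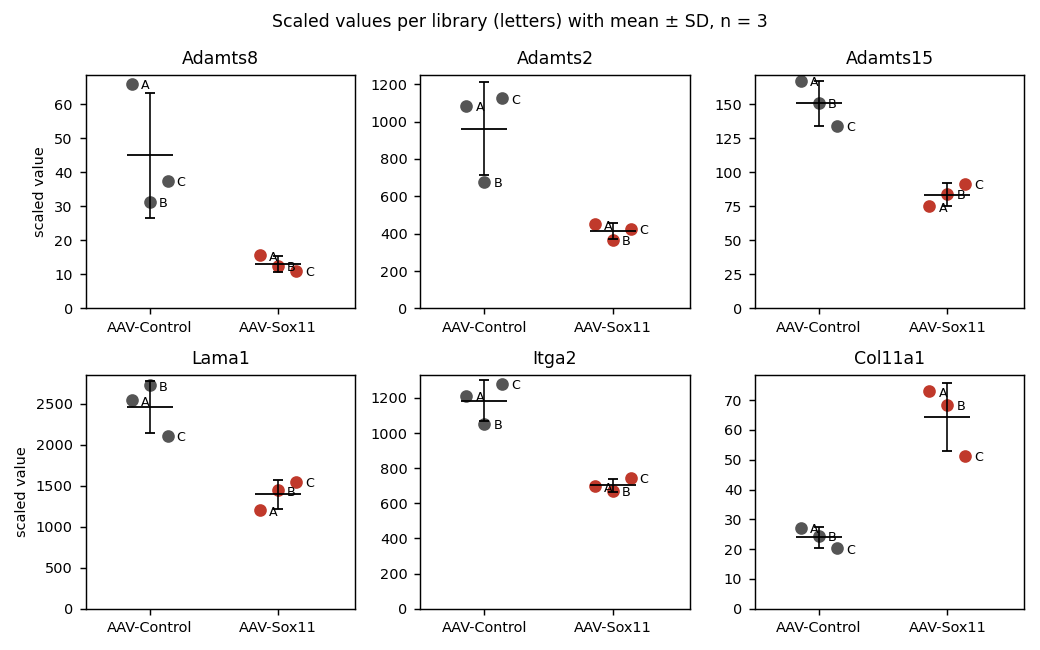
Scaled values in the 3 AAV-Control (grey) and 3 AAV-Sox11 (red) libraries, lettered, with mean and SD (n = 3), for the 6 genes that passed. No control value overlaps an AAV-Sox11 value in any of the 6 panels, and the largest control spread relative to its mean is that of Adamts8, with control A at 66.0.

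Among the fibrillar collagens, Col11a1 (chr3:114030540-114220718, plus strand), a chain that joins thin cartilage-type fibrils and is also expressed outside cartilage, had scaled values of 27.2, 24.5 and 20.3 in controls A, B and C and 73.0, 68.5 and 51.3 with AAV-Sox11. Every AAV-Sox11 library lay above every control, and all values were low. The mean rose from 24.0 ± 3.49 to 64.3 ± 11.5 (SD, n = 3), a log2 fold change of 1.38 ± 0.23 (2.60-fold) with an adjusted p of 0.0310. That p was 0.0572 without control A, and without an AAV-Sox11 library it lay between 0.0805 and 0.214. The other 9 fibrillar genes did not pass. Col24a1 had 259, 360 and 166 in the controls against 452, 573 and 424 with AAV-Sox11, and Col5a1 had 164, 144 and 98.4 against 253, 250 and 180. Their groups were separate too, with log2 fold changes of 0.94 ± 0.27 and 0.76 ± 0.23 and adjusted p-values of 0.0962 and 0.105. Col2a1, the main cartilage collagen, pointed the other way: 33.0, 13.7 and 13.5 in the controls against 5.22, 7.27 and 10.1 with AAV-Sox11, a log2 fold change of -1.22 ± 0.42 and an adjusted p of 0.134. Its only row, of 715 bases, is annotated as a processed transcript, and the log2 fold change was -0.82 without control A. Col1a1, Col1a2, Col3a1 and Col5a2, chains of the common fibrils of connective tissue, overlapped between groups, with log2 fold changes from -0.04 to 0.36.

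Of the collagens outside the fibrillar class none passed, and the most abundant of them per kb of transcript differed in direction. Col6a1 and Col6a2 encode chains of type VI collagen, which forms beaded filaments near basement membranes. Col6a2 had 93.2, 195 and 70.4 in the controls against 260, 383 and 284 with AAV-Sox11. The groups were separate, the log2 fold change was 1.48 ± 0.36 and the adjusted p was 0.0693. Col6a1, the collagen of highest control level (370 scaled units per kb), had 1188, 1964 and 1394 against 1800, 2184 and 2135, which overlap, a log2 fold change of 0.46 ± 0.18 and an adjusted p of 0.181. Col23a1, a transmembrane collagen, had 1431, 1256 and 609 against 2360, 2935 and 2128. Again no value overlapped, and the log2 fold change was 1.25 ± 0.31 with an adjusted p of 0.0702. Col12a1, which binds the surface of fibrils, had 1005, 896 and 1441 in the controls against 703, 602 and 711 with AAV-Sox11, a log2 fold change of -0.70 ± 0.18 and an adjusted p of 0.0733, on a row annotated as a retained intron. Col9a3, at the foot of the list with -1.48 ± 0.59, was also read on a retained-intron row. Its AAV-Sox11 values of 3.15, 7.28 and 23.1 were low and spread widely, and the highest nearly touched the controls' 23.3 to 27.0. The groups were also separate in Col9a2 (0.80 ± 0.28), Col20a1 (-0.37 ± 0.20) and the fibrillar Col27a1 (-0.79 ± 0.27), which had adjusted p-values of 0.141 or more. Col8a1, Col10a1, Col15a1, Col25a1 and the fibrillar Col11a2 overlapped, with log2 fold changes from -0.34 to 0.66.

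None of the 5 type IV collagens of basement membranes passed. Col4a1 and Col4a2, the ubiquitous chains, had control levels of 190 and 224 scaled units per kb. Col4a1 had 1608, 1146 and 1016 in the controls against 1027, 1038 and 956 with AAV-Sox11, and Col4a2 had 1735, 1370 and 1233 against 1376, 1414 and 1331. Control A was the highest library for both, the groups overlapped, and the log2 fold changes were -0.29 ± 0.16 and -0.06 ± 0.13; without control A that of Col4a2 was 0.08. Col4a6, a chain of more restricted basement membranes, had 50.5, 55.9 and 59.8 in the controls against 29.2, 30.1 and 34.2 with AAV-Sox11, with no overlap, a log2 fold change of -0.81 ± 0.19 and an adjusted p of 0.0633. Col4a3 and Col4a4 overlapped, at 0.22 ± 0.42 and 0.65 ± 0.38.

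The blocked fit is the one that compares the preparations of each day with each other, and it changed the collagen count most. It gave 6 genes higher in place of 1 among the 72 (Col11a1, Col5a1, Col6a2, Col23a1, Col24a1 and Itga4) and 6 lower in place of 5 (Adamts2, Adamts8, Itga2, Lama1, Lama3 and Col12a1). Over all 15450 genes it gave 323 higher in place of 123 and 414 lower in place of 235. The blocked adjusted p was 0.0287 for Col6a2, 0.0343 for Col23a1, 0.0354 for Col24a1, 0.0359 for Col5a1 and 0.0389 for Col12a1. Col5a1, Col12a1 and Col24a1 are named because of these values.

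**Figure D3:**
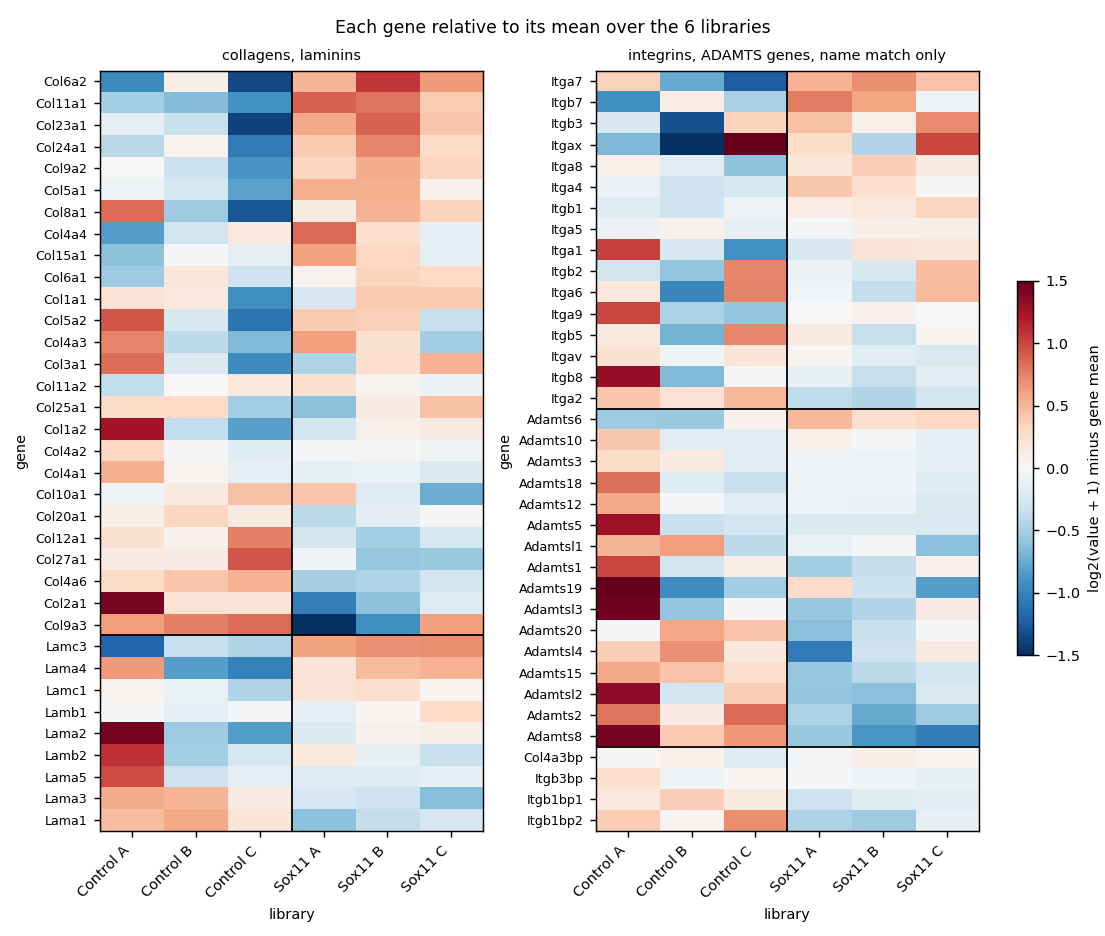
Each of 71 genes in each library as log2(value + 1) minus the gene's mean over the 6 libraries (colour, limited to 1.5 either way), ordered by family and, within it, by log2 fold change; a vertical line parts the groups and horizontal lines part families. The control A column is darkest red in Col1a2, Col2a1, Lama2, Lamb2, Itgb8 and many ADAMTS genes, and the control C column is darkest for Itgax.

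Laminins are trimers of an alpha, a beta and a gamma chain, and here an alpha chain fell. Lama1 (chr17:67697259-67822647, plus strand) encodes the alpha chain of the laminin of embryonic basement membranes, which is also made in the retina and is needed for its inner limiting membrane. It had 2539, 2722 and 2108 in controls A, B and C and 1202, 1442 and 1545 with AAV-Sox11. All 3 AAV-Sox11 libraries were below all 3 controls. The mean went from 2456 ± 315 to 1396 ± 176, a log2 fold change of -0.81 ± 0.13, 1.76-fold lower, with an adjusted p of 0.0294. Lama1 was the most abundant laminin per kb in the controls, at 258 scaled units, and lay below Lamc1 with AAV-Sox11, at 147 against 206. Without control A the adjusted p of Lama1 was 0.0784, and without an AAV-Sox11 library it lay between 0.0834 and 0.139.

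The other 9 laminin chains did not pass. Lama3, the alpha chain of epithelial anchoring laminins, had 349, 337 and 259 in the controls against 199, 190 and 152 with AAV-Sox11. The groups were separate, at a log2 fold change of -0.80 ± 0.17, and the adjusted p was 0.0545, or 0.0287 in the blocked fit. Lamc3, a gamma chain found in the retina, was low throughout, at 7.76, 14.7 and 13.5 in the controls against 29.2, 31.2 and 31.2 with AAV-Sox11, a log2 fold change of 1.32 ± 0.28 with an adjusted p of 0.0569. Its AAV-Sox11 values were all above its control values, and 5.60% of its row overlaps an exon of Gm13441 on the opposite strand. Lamc1, the gamma chain shared by most laminins, had 1444, 1293 and 1015 against 1599, 1669 and 1435, which overlap only in control A, with a log2 fold change of 0.34 ± 0.14 and an adjusted p of 0.186. Control A was far above the rest in Lama5 (477, beside 194 to 221 in the other 5 libraries) and Lamb2 (340, beside 112 to 177), chains of adult vascular and synaptic basement membranes. Lama4, of vessel walls, had 129, 46.1 and 40.5 in the controls against 95.9, 115 and 120 with AAV-Sox11. Its log2 fold change was 0.81 ± 0.41 with all libraries (adjusted p = 0.277) and 1.33 ± 0.17 without control A (adjusted p = 0.0475). Lama2 and Lamb1 overlapped between the groups, at -0.04 and 0.11, Lama2 with 416 in control A and 84.9 to 163 elsewhere. Without control A the log2 fold change of Lama2 was 0.67 ± 0.17 (adjusted p = 0.105).

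Among the integrins 1 alpha subunit fell and none rose. Itga2 (chr13:114833081-114932100, minus strand) encodes the alpha subunit of a collagen and laminin receptor that pairs with the Itgb1 product. It had 1214, 1054 and 1281 in controls A, B and C and 696, 670 and 744 with AAV-Sox11. The libraries of each group lay close together and the groups were well apart. The mean went from 1183 ± 117 to 703 ± 37.6, a log2 fold change of -0.75 ± 0.10, 1.68-fold lower, with an adjusted p of 0.020, the lowest among the 72 genes. Leaving out control A gave 0.0565, and leaving out an AAV-Sox11 library gave between 0.0759 and 0.139. Itga1, the other collagen-binding alpha subunit measured, had 710, 295 and 185 against 296, 401 and 395, which overlap, and a log2 fold change of 0.09 ± 0.44, or 0.62 ± 0.24 without control A.

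The partner subunit Itgb1, shared by most matrix receptors, did not follow Itga2. It had 579, 535 and 628 in the controls against 717, 738 and 829 with AAV-Sox11. Every AAV-Sox11 library was higher, at a log2 fold change of 0.39 ± 0.10 with an adjusted p of 0.0784. Itga4, a receptor subunit for fibronectin and the vascular adhesion molecule VCAM, was the most abundant integrin per kb, at 257 scaled units in the controls and 361 with AAV-Sox11. Its values were 2564, 2189 and 2262 against 3610, 3210 and 2741. They did not overlap, and the log2 fold change was 0.44 ± 0.12 with an adjusted p of 0.0822, or 0.0474 in the blocked fit; its main row shares 11.5% of its length with exons of Cerkl on the opposite strand. Itga5, the fibronectin receptor subunit, was nearly level, at 983, 1094 and 962 against 1021, 1111 and 1109. Itgav, the vitronectin receptor subunit, had 541, 441 and 528 against 473, 409 and 394, a log2 fold change of -0.24 ± 0.12. Neither passed.

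Neither laminin-binding alpha subunit in the table passed. Itga7 had 68.0, 31.4 and 22.2 in the controls against 77.2, 87.2 and 72.4 with AAV-Sox11. These do not overlap, and the log2 fold change was 1.10 ± 0.38 (adjusted p = 0.14), or 1.54 ± 0.21 without control A (adjusted p = 0.0486). Itga6 ranged from 242 to 803 over the controls alone, summed over 3 rows of which the most abundant is not protein-coding, and gave 0.05 ± 0.42. The leukocyte subunits Itgax and Itgb2 were highest in control C, at 1546 and 323, the library with the highest summed microglia and leukocyte signal. Their group means were level, at 671 in both groups for Itgax and 204 in both for Itgb2. The log2 fold changes of 0.57 ± 0.79 and 0.08 ± 0.35 lay within the spread of the libraries. The part of the microglia and leukocyte signal in these values was not tested. Itgb7 and Itgb3, a leukocyte and a vitronectin receptor subunit, overlapped between the groups, at 0.86 ± 0.31 and 0.81 ± 0.40, with adjusted p-values of 0.147 and 0.264. Both were higher in each AAV-Sox11 library than in the control of its day. Itgb8, which activates latent TGF-beta, had 880 in control A and 225 to 350 in the other 5 libraries, and its log2 fold change was -0.42 ± 0.44 with control A and 0.13 without it. Itga8, a receptor subunit of nephronectin, was separate between the groups at 0.46 ± 0.20 (adjusted p = 0.213), and Itga9 and Itgb5 overlapped, at 0.04 ± 0.39 and -0.11 ± 0.34. Itga9 was at 0.55 ± 0.11 without control A (adjusted p = 0.0784).

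The ADAMTS genes were the family that pointed 1 way: 15 of 16 had a negative log2 fold change, beside 7135 of all 15450 genes, and 3 of them fell. Without control A 11 of 16 were negative. Adamts2 (chr11:50602084-50807573, plus strand), which removes the amino-terminal propeptide of fibrillar procollagens, had 1085, 679 and 1124 in controls A, B and C and 449, 369 and 426 with AAV-Sox11. The lowest control lay well above the highest AAV-Sox11 library. The mean went from 963 ± 247 to 415 ± 41.6, a log2 fold change of -1.18 ± 0.20, 2.27-fold lower, with an adjusted p of 0.0331. Both of its rows, the protein-coding one and a shorter processed transcript, were lower with AAV-Sox11, with means of 756 and 314 for the first and 207 and 101 for the other. Without control A the adjusted p of Adamts2 was 0.0829, and without an AAV-Sox11 library it lay between 0.0969 and 0.160. Adamts3, which removes the same kind of propeptide and whose zinc-binding stretch is printed above beside that of Adamts2, had 36.9, 33.3 and 27.0 against 29.2, 29.1 and 27.1, which overlap, and -0.17 ± 0.21.

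The other ADAMTS genes that fell are proteoglycan-cleaving members and neighbours on chromosome 9. Adamts15 (chr9:30899155-30922452, minus strand) had 167, 151 and 134 in the controls against 75.1, 84.1 and 91.5 with AAV-Sox11. No values overlapped, and the mean went from 151 ± 16.4 to 83.6 ± 8.23, a log2 fold change of -0.84 ± 0.16, 1.79-fold lower, with an adjusted p of 0.0438. That p was 0.0514 in the blocked fit, 0.0781 without control A, 0.0543 without control B and between 0.112 and 0.246 without an AAV-Sox11 library. Adamts8 (chr9:30942562-30963838, plus strand) had 66.0, 31.4 and 37.6 in the controls against 15.6, 12.5 and 11.1 with AAV-Sox11. The values are low and the groups separate, with control A 1.75 times the next library. The log2 fold change was -1.65 ± 0.32, 3.14-fold lower, with an adjusted p of 0.0481, or 0.0696 without control A, 0.0599 without control C and between 0.112 and 0.232 without an AAV-Sox11 library. What was read for Adamts8 is the decay-annotated row without the zinc-binding stretch, and 13.7% of that row overlaps an exon of Gm29724 on the opposite strand; whether reads were counted by strand is not stated, so the 2 genes' reads may not be told apart there.

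None of the remaining ADAMTS genes passed. Adamts1, the most abundant per kb in the controls (286 scaled units) and a protease of versican and other proteoglycans, had 2162, 883 and 1153 in the controls against 754, 839 and 1132 with AAV-Sox11. Control A stood alone and the groups overlapped, at -0.54 ± 0.32. Adamts5, the main aggrecan-cleaving enzyme of cartilage in mice, had 1411 in control A and 464 to 503 in the other 5 libraries. Its log2 fold change of -0.44 ± 0.39 was 0.09 without control A. Adamts20 had 89.3, 136 and 123 against 58.4, 71.7 and 88.5, separate by a narrow margin, with -0.66 ± 0.23 and an adjusted p of 0.137. Adamts6 was the 1 member with a positive value, at 99.0, 98.1 and 151 against 204, 172 and 181. Its groups did not overlap, and the log2 fold change was 0.70 ± 0.20 with an adjusted p of 0.0928. Of the ADAMTS-like genes, which are thought to act without protease activity, Adamtsl2 had the largest mean, at 301, 96.1 and 152 against 78.2, 75.8 and 102, with -0.95 ± 0.38 and an adjusted p of 0.183. Adamts10, Adamts12 and Adamts18 lay between -0.05 and -0.26. Adamts19, Adamtsl1, Adamtsl3 and Adamtsl4 lay between -0.49 and -0.82, with adjusted p-values of 0.215 or more.

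Control A moved with these values, the ADAMTS genes most of all. It was the highest library for 29 of the 72 genes (40.3%), beside 20.6% of all genes, and was at least 1.5 times the next library in 16 (22.2%), beside 3.20% of all genes. Those 16 are 8 of the 16 ADAMTS genes, 3 of 10 laminins, 3 of 16 integrins and 2 of 26 collagens. Adamts19 was the extreme, at 186 in control A and 18.6 to 44.8 elsewhere, 6.77 times the mean of the other 5 libraries. Adamts1, Adamts5, Adamtsl3, Lama2, Col1a2 and Itgb8 were among the others, at 2.27 to 3.39 times that mean. By summed value the marker lists of mural, endothelial, fibroblast, astrocyte and Muller glia genes were highest in control A as well. So were those of cone, rod, bipolar and horizontal cell genes. Single genes differed: Ogn of the fibroblast list (2 of 6 genes measured) was at 48.5 in control A and 71.4 in AAV-Sox11 C. Pde6b, Nrl and Sag of the rod list and Prkca of the bipolar list were highest in control B, and Apoe in AAV-Sox11 A. The mural list summed to between 3297 and 16890 over the controls and 5938 to 6713 with AAV-Sox11, and the endothelial list to between 1725 and 4955 and 2032 to 2398. None of their genes passed the test between the groups, and the part of those cells in the values above was not tested. Rgs5, a defining mural cell gene, was at 15449 in control A, 3265 and 2898 in controls B and C and 5457 to 6137 with AAV-Sox11. With control A left out the ADAMTS median was -0.12, with 11 of 16 genes negative, the collagen median 0.37, the laminin median 0.21 and the integrin median 0.38. None of the 6 genes that passed then did so, while over all genes those higher went from 123 to 51 and those lower from 235 to 87. Their log2 fold changes without control A were 1.47 for Col11a1, -0.72 for Itga2, -0.79 for Lama1, -1.08 for Adamts2, -0.77 for Adamts15 and -1.34 for Adamts8. Itga7 and Lama4 passed in that fit. Among overlapping genes, Col1a2 was then at 0.57, Col3a1 at 0.68, Col5a2 at 0.81, Col8a1 at 1.25, Adamts18 at 0.17 and Adamts19 at 0.44, none of which passed.

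**Figure D4:**
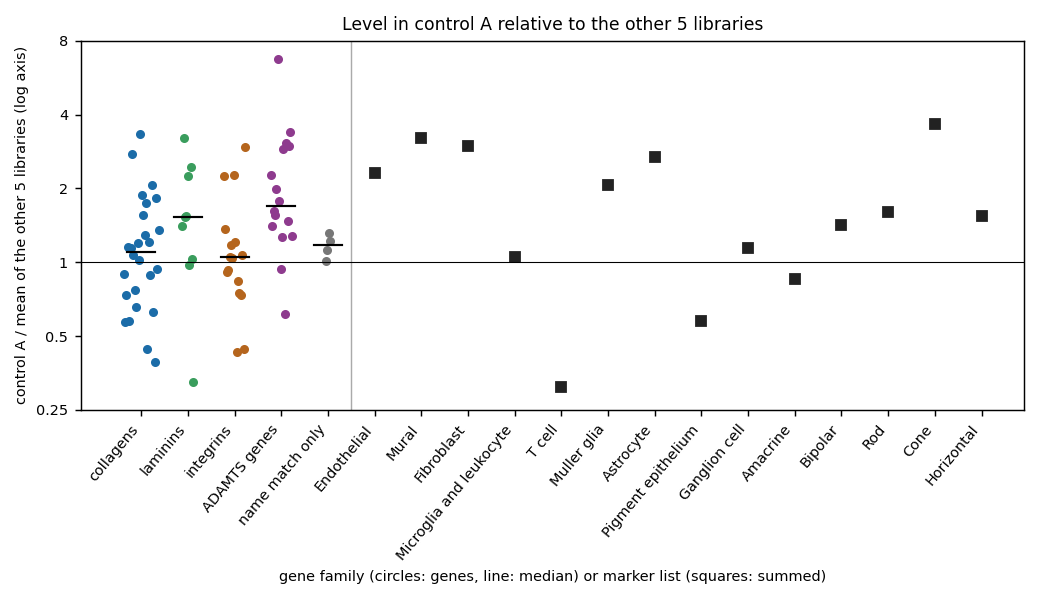
Value in control A over the mean of the other 5 libraries (vertical log axis), for each of 71 genes by family (circles, with the median of those plotted as a line) and for the summed value of each marker list (squares). The ADAMTS median lies highest of the families and Adamts19 reaches 6.77; the mural list lies at 3.22, the cone list at 3.67 and the ganglion cell list at 1.14.

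The 4 genes that match by name only did not pass. Itgb1bp1 and Itgb1bp2, whose products bind the tail of the Itgb1 subunit, were lower with no overlap, at -0.44 ± 0.13 and -0.75 ± 0.23, with adjusted p-values of 0.0934 and 0.105. Itgb1bp1 had 204, 236 and 201 against 147, 161 and 162, and Itgb1bp2 had 87.4, 68.6 and 109 against 48.0, 45.7 and 61.3. Col4a3bp, a ceramide carrier, and Itgb3bp, a centromere protein, overlapped between the groups, at 0.07 ± 0.11 and -0.13 ± 0.15.

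Matrix partners, matrix enzymes and integrin adaptors were listed beside these families, and 54 of 68 listed genes were in the table. Of these 1 fell and none rose, where 1.52% of all genes tested were lower and 0.796% higher. The median log2 fold change was 0.10, beside 0.03 over all genes. The groups were separate in 12 genes higher and 5 lower, beside 16.2% and 14.4% of all genes. Those described below, other than the 1 that fell, were picked by name. Some not described had a limma adjusted p nearer 0.05, such as Bmp1 (0.0597), P4hb (0.0627) and Mmp17 (0.0674). The 1 that fell was Bcan, which encodes brevican, the proteoglycan of brain matrix that ADAMTS enzymes cleave. It had 348, 291 and 282 in the controls against 143, 149 and 157 with AAV-Sox11, wide apart, at -1.03 ± 0.13 with an adjusted p of 0.0169. Fn1, fibronectin, had 2443, 939 and 1887 against 3379, 2952 and 3732. Its groups did not overlap, and the log2 fold change was 1.03 ± 0.32 with an adjusted p of 0.110. Mmp2, a gelatin-cleaving metalloprotease, had 361, 166 and 316 against 122, 113 and 165, which nearly touch, at -1.01 ± 0.30 with an adjusted p of 0.102. The basement membrane linker Nid1 had 648 in control A and 115 to 298 in the other 5 libraries. Agrn, Sparc, Timp3 and the adaptors Tln1, Fermt2 and Ptk2 overlapped between the groups, with log2 fold changes from -0.35 to 0.35.

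Several of the genes are neighbours in the genome, and neighbours did not always move together. Adamts15 and Adamts8 lie 20.1 kb apart on opposite strands, transcribed away from each other with no protein-coding gene between them, and both fell. Itga2 and Itga1 lie 21 kb apart on the same strand, and Itga2 fell while Itga1 was at 0.09. Adamts2 and Col23a1 are 482 kb apart on chromosome 11 with 17 protein-coding genes between them, at -1.18 and 1.25. The pairs Col6a1 and Col6a2, Col4a1 and Col4a2, and Adamts1 and Adamts5 are adjacent, and the members of each pair had log2 fold changes of the same sign, although Col4a2 and Adamts5 turned without control A.

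The 250 bases before the start of each gene were searched on both strands for ACAAAG and ACAATG, letters at the core of the sites that SOX factors bind. RefSeq promoters on GRCm38.p6 were at hand for 47 of the 72 genes, with 48 starts. A match was found in 7 of the 48 (14.6%), beside 25.2% of 32851 promoters of the same length. Of the 6 genes that passed, Itga2, Adamts2 and Col11a1 had a promoter in the set, and no match was found in their windows. The matches in the abundant members Itgb1 and Adamts1 are given with 10 bases on each side, the match in capitals; in Itgb1 it is the reverse complement of ACAAAG.
Itgb1 (chr8:128685559-128685584, plus strand): gaccgagctcCTTTGTctgcaccctg
Adamts1 (chr16:85803315-85803340, minus strand): ccagcgctgtACAAAGtgctggtccc
A match is letters in a window and no measure of binding.

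In the authors' deposited table, at a false discovery rate under 0.05, 7 of the 90 rows were higher with AAV-Sox11 and 12 lower, of 7 and 11 genes, beside 1.93% and 4.91% of all 26691 rows. All 6 genes above are among them with the same direction. The authors' deposited table gives log2 fold changes of 1.42 for Col11a1, -0.75 for Itga2, -0.81 for Lama1, -0.85 for Adamts15 and -1.78 for Adamts8, and -1.27 and -1.04 for the rows of Adamts2. The further rows higher in the authors' deposited table belong to Col23a1, Col24a1, Col5a1, Col6a2, Lamc3 and a processed transcript of Itga4. The further rows lower there belong to Col4a6 and Lama3, to retained introns of Adamtsl2 and Col12a1, and to processed transcripts of Col2a1 and Itgb1bp1. The protein-coding rows of Adamtsl2 and Itgb1bp1 were not among them. The authors' test and the one used here differ in the values tested and in the way of testing, and the same 6 libraries underlie both.

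How far the 6 calls depend on the fit was gauged over 21 alternatives. All 6 genes kept their direction and an unadjusted p under 0.05 in each, whereas the adjusted p was under 0.05 in 7 of the 21 for Adamts8, 9 for Adamts15, 11 each for Col11a1, Itga2 and Lama1, and 12 for Adamts2. It ran from 0.0147 to 0.145 for Itga2, 0.0156 to 0.184 for Lama1, 0.0209 to 0.213 for Adamts2, 0.0287 to 0.240 for Col11a1, 0.0283 to 0.284 for Adamts15 and 0.0334 to 0.232 for Adamts8. With the component that is missing from the deposited values as a covariate (explained with the processing) none of the 72 genes passed, and the adjusted p of the 6 lay between 0.0671 and 0.14. A sex index, the mean log2 value of 4 Y-linked genes minus that of Xist, was -6.82, -6.79 and -5.26 in controls A, B and C and -6.86, -8.11 and -8.45 with AAV-Sox11, so every AAV-Sox11 library lay below every control. With this index as a covariate none passed either, at 0.111 to 0.213. Over all 15450 genes these fits passed none as well; the unadjusted p was under 0.05 for 2582 and 2702 of them.

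**Figure D5:**
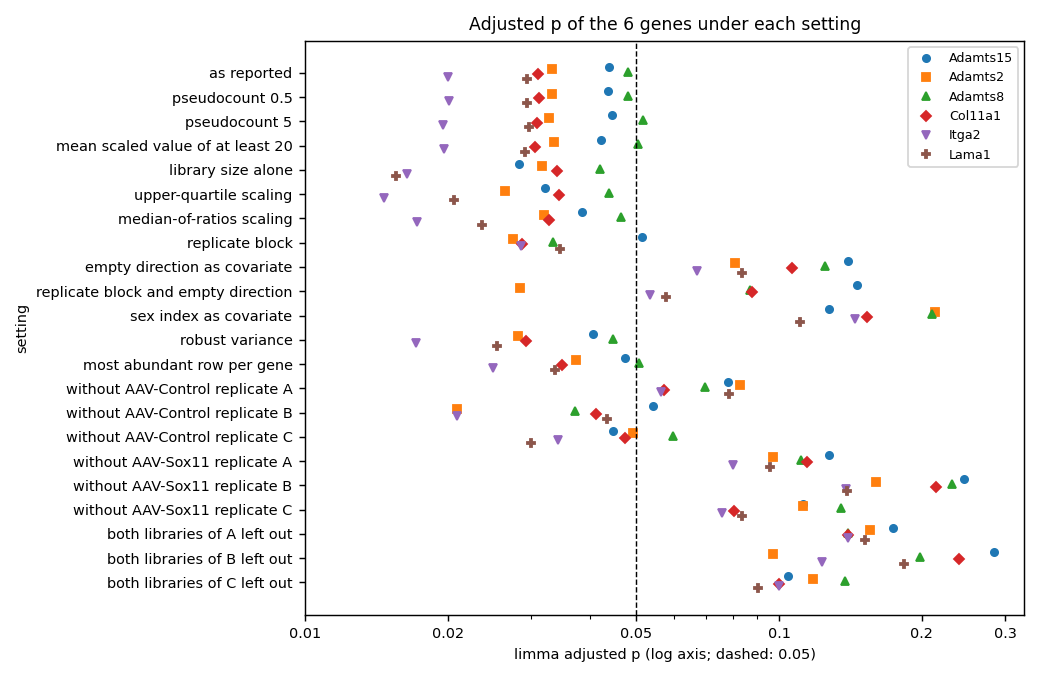
Adjusted p of the 6 genes (horizontal log axis, dashed line at 0.05) in the reported fit and in each of the 21 alternatives (rows). With all libraries and no covariate the genes lie left of the line, except Adamts8 in 3 settings (pseudocount 5, the minimum mean of 20, the most abundant row) and Adamts15 with the replicate block. All 6 lie to its right without control A, without any 1 AAV-Sox11 library, with both libraries of a day left out, or with the sex index or the empty direction alone as a covariate.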

How the data were processed

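Polyadenylated RNA of sorted retinal cells was sequenced in 6 libraries. Tools listed in the submitters' processing notes are CASAVA 1.8.2 and edgeR, and the build is mm10; the aligner, the counter and whether strand was used are not stated there. The authors deposited whole-number columns, treated here as a score, and normalized columns, a signal equal to the whole numbers times 1 factor per library (0.965 to 1.04). The deposited table also holds the authors' log2 fold changes and p-values, named as theirs wherever used; 6 columns of per-library ratios were not used.

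The whole numbers are not raw counts: of the 5 directions in which 6 libraries can differ, 1 had an SD of 9.48e-05 natural log units over 1177 abundant rows, and the next 0.0980. This empty direction had a cosine of 0.0185 with the group contrast, and AAV-Sox11 B held 57.7% of its squared weight. No header records its removal, so spread within groups is understated by an unknown amount. A count test was therefore not used.

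Normalized values were summed by gene name (357 rows without a name, 0.422 to 0.517% of each total, were left out). All 15450 genes, none filtered further, were tested with limma-trend (limma 3.58.1, R 4.3.3) on log2(value + 1), with Benjamini-Hochberg adjustment. That scale understates changes of low genes. The test was tested on simulated data with independent spread in each gene. Those data hold neither an empty direction nor shifts of a whole library such as control A, so they cannot show how these affect the calls. Errors are SEs of log2 fold changes or SDs of values. The named genes were all that passed, the 4 most abundant and the 3 highest and 3 lowest by fold change of each family, and 10 by name, of which Col18a1 and Adamts4 were not analysed here. The values of 1 of the 72 genes are not reported here, and it is left out of the plots; it is in the counts and medians. The members and lists were chosen with earlier results of these data known. Libraries of a letter were prepared on the same day, per the series description; the deviations of same-letter libraries from their group means correlated at 0.00250 (A), 0.793 (B) and 0.236 (C).

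Alternatives changed the pseudocount, filter, scaling, row summing, variance moderation, covariates, block or libraries. Coding sequences and positions are from GENCODE M21 (mm10) and promoters from RefSeq.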

Additional observations from a re-analysis of the deposited data

How the results depend on the processing

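Among the 72 genes, 1 was higher and 5 were lower as reported. With the replicate block 6 were higher (6 lower, without Adamts15, with Lama3 and Col12a1 added); with the empty direction as a covariate 0 and 0; with the replicate block and that direction 2 and 1; with the sex index 0 and 0; with both libraries of letter A, B or C left out 0 and 0 each time. Leaving out 1 library gave 0 to 5 higher and 0 to 5 lower. Over all 15450 genes, leaving out any AAV-Sox11 library passed 0 genes (1942 to 3120 at an unadjusted p under 0.05), and leaving out both libraries of a letter passed 0 or 1, so these zeros are not particular to the 72. The block changed no call beyond those given in the report. Pseudocount 5, a minimum mean of 20 and the most abundant row alone each lost Adamts8, and scaling by library size or upper quartile added Lama3.

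The collagen median of 0.21 was -0.17 with the sex index and -0.11 to 0.37 with 1 library left out. The integrin median of 0.09 was 0.47 with the sex index, 0.39 without both A libraries and -0.10 to 0.38 with 1 library left out. The ADAMTS median was -0.08 without both A libraries and -0.84 with the sex index.

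Some log2 fold changes of genes that had not passed changed sign. Itga6 was -0.0155 by library size, -0.24 without both B libraries and -0.43 to 0.43 with 1 library left out. Itga5 was -0.0199 with the sex index. Without both A libraries Adamts10 was 0.0866, Adamts5 0.0861, Col4a2 0.0783, Itgb8 0.082, Lama5 0.073 and Lamb2 0.16. With 1 library left out Adamts10 ran from -0.15 to 0.14, Adamts5 from -0.71 to 0.0873, Col4a2 from -0.17 to 0.0796, Itgb8 from -0.85 to 0.13, Lama5 from -0.58 to 0.0621 and Lamb2 from -0.51 to 0.29. The cause of these changes was not tested.

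Groups of 3 libraries, pooled animals and adjusted values limit the precision. Depth in reads is unknown, so no counting error is given.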
